A study of Arabidopsis thaliana with 18 samples.

Results

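The photosystem and light-harvesting genes described here are the nuclear genes whose table symbol names a photosystem subunit, a light-harvesting protein, plastocyanin, a subunit of the chloroplast NADH dehydrogenase-like (NDH) complex or a protein of the PGR group. The rule matched symbols only and used no measured value. It found 37 genes among the 11437 that the table lists, and all 37 passed the filter on low counts that left 9006 genes for testing. They were 4 antenna genes of photosystem I, 5 antenna genes of photosystem II, 8 subunits of photosystem I, 3 of the oxygen-evolving complex, 3 small subunits and 3 assembly factors of photosystem II, plastocyanin, 6 NDH genes and 4 PGR genes. Members of these families outside the table were not analysed here.

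RNA was sequenced from Arabidopsis thaliana seedlings of ecotype Col-0, aged 14 days and grown on 1/2MS medium with 12 h of light and 12 h of dark. Untreated seedlings were collected at ZT0, where zeitgeber time (ZT) is the number of hours since the lights came on. All other seedlings were moved at ZT0, before the lights came on, to fresh medium and collected at ZT2, and that medium held 0.1% DMSO, 10 µM DPI, 25 µM PI (pentamidine isethionate), 12.5 µM AEG (AEG3482) or 2 µM TYR (Tyrphostin AG879). DMSO is the solvent control, the study names the chemicals as modifiers of sugar signalling, and each of the 6 groups had 3 libraries. Onset of light, 2 h of time, the transfer and DMSO all separate the DMSO group from the untreated one and cannot be told apart. The labels do not say whether the 3 libraries of a group came from separate cultures. The p-values thus measure the spread between these libraries, which may not be that between separate cultures.

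Photosystem II uses light to take electrons from water at its oxygen-evolving complex, and photosystem I lifts them on to ferredoxin after plastocyanin has carried them across the thylakoid lumen. Light-harvesting proteins of the LHCA and LHCB families bind chlorophyll and pass excitation to photosystems I and II. The NDH complex and the PGR5 route return electrons from ferredoxin to the intersystem chain, which is called cyclic electron flow. The core reaction-centre proteins are encoded in the chloroplast, whereas the antenna and many of the outer subunits are nuclear genes known to respond to light, the clock and sugar.

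The listed genes held between 3156987 and 3249696 estimated counts per library, with summed TPM (the deposited level per transcript length and library total) between 483682 and 490113. Members took 8.13% to 9.76% of these counts in untreated libraries and 8.69% to 12.3% at ZT2. Summed TPM of 6 shoot marker genes was 105 to 166 across all libraries, and that of 9 root marker genes in the table was 5.26 to 21.6, so the libraries of whole seedlings held little signal of these root markers. Some libraries stood apart from others of their group. FSD1, a chloroplast iron superoxide dismutase, had 3041 to 5857 counts in the 3 untreated libraries and in DMSO 1, DPI 1, PI 1, AEG 1 and TYR 3, but 0 to 15 counts in the other 10. LOX2, a jasmonate synthesis gene, had 282 to 424 counts in untreated libraries and 3380 to 26309 at ZT2. The part of these differences in the values below was not tested.

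The sequences just upstream of 6 antenna genes are shown, 4 that rose at dawn and 2 that were not called. Lhca6, which also rose, and LHCB5 and LHCB4.3, which were not called, are not shown. Each holds 250 bases before the RefSeq gene start, from build TAIR10.1 and read in the direction of the gene. Capitals mark motif matches on either strand, which are the G-box CACGTG, the I-box GATAAG and the site AAAAATCT known for binding the clock protein CCA1. The first 4 are LHCA1 (chr3:20341177-20341426, minus strand), LHCA4 (chr3:17495034-17495283, minus strand), LHCB2.1 (chr2:1824481-1824730, minus strand) and LHCB6 (chr1:5447881-5448130, minus strand).
LHCA1: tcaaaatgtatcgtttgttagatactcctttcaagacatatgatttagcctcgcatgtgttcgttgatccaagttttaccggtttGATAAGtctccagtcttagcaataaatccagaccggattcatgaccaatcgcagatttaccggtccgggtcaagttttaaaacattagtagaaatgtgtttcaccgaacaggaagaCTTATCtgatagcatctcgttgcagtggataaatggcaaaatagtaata
LHCA4: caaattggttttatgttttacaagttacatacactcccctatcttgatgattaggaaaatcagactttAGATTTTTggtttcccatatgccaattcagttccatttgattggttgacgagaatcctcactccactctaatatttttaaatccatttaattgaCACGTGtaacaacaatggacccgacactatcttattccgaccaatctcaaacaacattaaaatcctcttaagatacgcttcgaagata
LHCB2.1: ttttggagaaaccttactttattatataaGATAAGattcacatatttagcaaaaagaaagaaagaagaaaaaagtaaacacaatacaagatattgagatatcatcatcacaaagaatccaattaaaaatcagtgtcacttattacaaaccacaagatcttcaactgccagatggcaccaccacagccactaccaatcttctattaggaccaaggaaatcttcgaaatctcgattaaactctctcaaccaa
LHCB6: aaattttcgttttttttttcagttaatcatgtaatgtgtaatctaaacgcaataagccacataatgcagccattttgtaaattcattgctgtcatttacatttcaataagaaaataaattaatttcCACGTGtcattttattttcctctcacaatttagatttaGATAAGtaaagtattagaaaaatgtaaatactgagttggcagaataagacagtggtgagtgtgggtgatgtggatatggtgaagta

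The 2 antenna genes shown that were not called at dawn are LHCA2 (chr3:22745264-22745513, plus strand) and LHCB4.2 (chr3:2717307-2717556, plus strand).
LHCA2: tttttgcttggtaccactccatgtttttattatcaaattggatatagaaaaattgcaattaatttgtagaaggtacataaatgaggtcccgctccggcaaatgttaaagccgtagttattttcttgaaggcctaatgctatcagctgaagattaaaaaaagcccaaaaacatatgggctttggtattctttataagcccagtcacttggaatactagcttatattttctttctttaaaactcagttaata
LHCB4.2: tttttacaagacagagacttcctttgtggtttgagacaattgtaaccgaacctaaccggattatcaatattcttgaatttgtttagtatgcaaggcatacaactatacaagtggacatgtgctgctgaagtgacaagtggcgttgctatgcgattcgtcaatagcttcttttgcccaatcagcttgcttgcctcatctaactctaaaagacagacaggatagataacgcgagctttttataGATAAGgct

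In these windows LHCB6 carried both a G-box and an I-box, LHCA4 a G-box and a CCA1 site, LHCA1 a pair of I-boxes and LHCB2.1 a single I-box. LHCB4.2 also carried an I-box, and LHCA2 held none of the motifs. Of the antenna genes not shown, Lhca6, which also rose, held none of the motifs, nor did LHCB5 and LHCB4.3. Over the window from 250 bases before to 50 after the start, a G-box lay in 29.7% of the 37 members and in 7.65% of 27561 promoters of all genes. The I-box lay in 40.5% of members and 14.7% of all promoters. The CCA1 site lay in 13.5% and 7.88%, and the evening element AAAATATCT in 2.70% and 2.81%. In PSAE-1, PSAH-1, PSB29, PSBO1, PSBO2 and PSBR the only G-box lay after the start. The only I-box of LHCA4, PETE1, PSAD-2, PSAH-1 and PSBY also lay after it. Shares for the bases before the start alone, and for promoters of the 9006 genes tested, were not taken. Among the 11 members that rose at dawn the G-box share was 27.3%, against 30.8% of the other 26 members. The I-box shares were 54.5%, or 6 members, and 34.6%, or 9 members. LHCA4 and PSAD-2 are among those 6 and held it only after the start. The motifs were searched on both strands and no pair of them can match the same letters in full. These shares are a description of the letters and carry no test.

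At dawn the antenna genes LHCA1 and LHCA4 about doubled, while LHCA2 of the same complex did not pass the test. LHCB2.1 and LHCB6 of the photosystem II antenna, PSAD-2 of photosystem I and PnsB2 of the NDH complex also rose by 1.66-fold to 1.79-fold. None of the 3 oxygen-evolving genes passed the test in either direction. In all, 12 of the 37 members were called with DMSO at ZT2 against untreated, by edgeR's quasi-likelihood test with adjusted p under 0.05 over all 9006 genes, 11 of them higher and 1 lower. That is 32.4% of members beside 35.6% of all genes tested, so the share of members called was close to that of all genes. By direction, 29.7% of members were called higher beside 19.6% of all genes, and 2.70% were called lower beside 16.0%. The median log2 change was 0.09 over members and 0.015 over all genes. The median was 0.04 without the 2nd untreated library and 0.18 without the 1st. The libraries of the 2 groups did not overlap in normalised counts, on which every such count of members is based, for 16 members, which is 43.2% of members beside 49.4% of all genes. In whole seedlings, fewer cells of a type and less RNA per cell cannot be told apart. Root marker TPM summed to 11.2 to 21.6 in untreated and 9.14 to 10.1 in DMSO libraries, and without GL2, which is also known in leaf hairs, it summed to 3.12 to 12.9 and 4.12 to 5.62. EXPA7, a root hair gene, had 0.21, 1.96 and 0.22 TPM untreated and 0 TPM in every DMSO library. RHD2, another root hair gene, had 0.53 to 1.37 and 0.93 to 1.72 TPM. Shoot marker TPM summed to 122 to 129 and 112 to 134, and the part of the markers in the dawn changes was not tested.

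**Figure D1:**
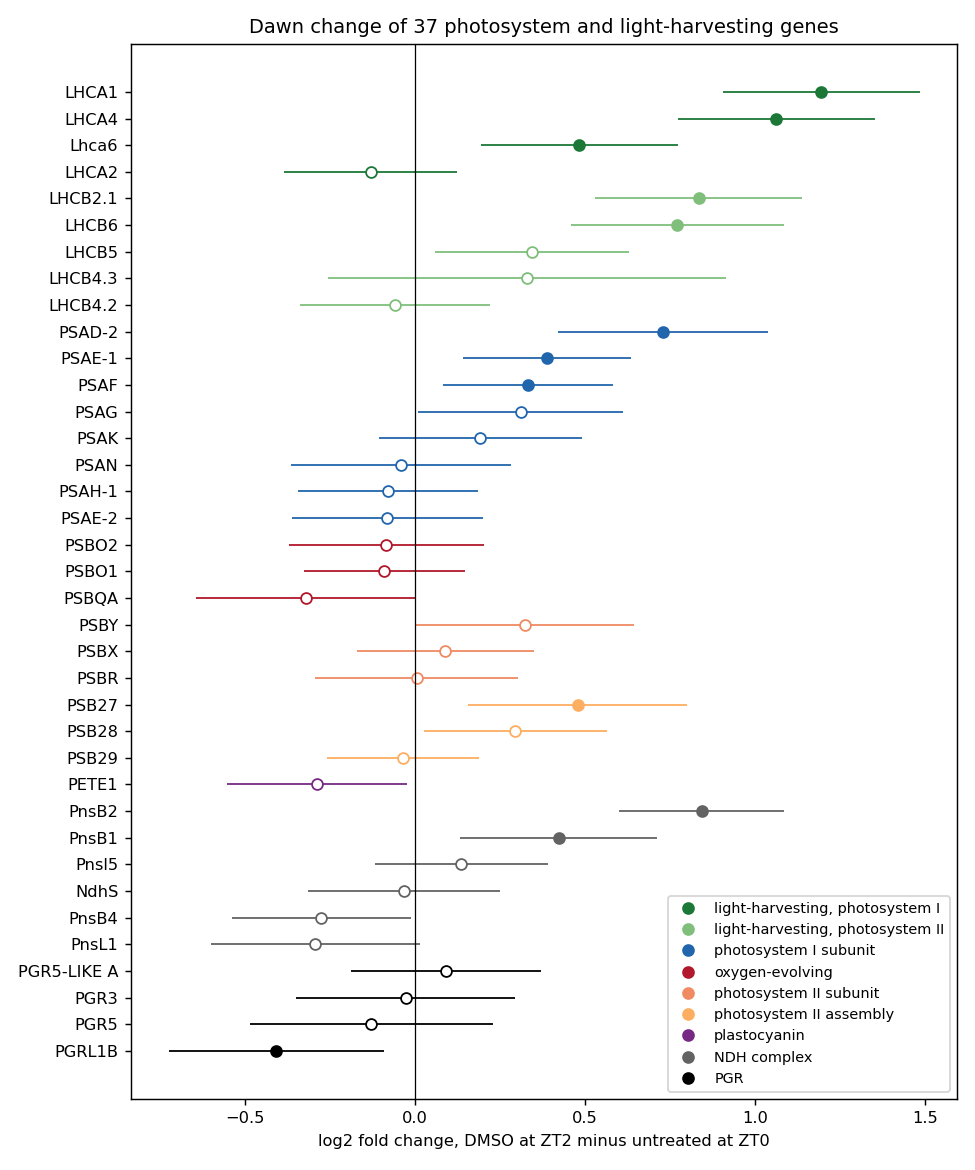
Log2 fold change (x axis) of each of the 37 members (y axis, coloured by role) between the 3 DMSO libraries at ZT2 and the 3 untreated libraries at ZT0, with 95% intervals. Filled points passed the edgeR test, and LHCA1 at 1.195 and LHCA4 at 1.06 lie farthest to the right, while the points of the oxygen-evolving genes lie left of 0.

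LHCA1 and LHCA4 encode chlorophyll-binding proteins that form a pair in the antenna belt of photosystem I. LHCA1 stood at 2819, 2343 and 2643 TPM in untreated libraries and at 6299, 5444 and 5573 TPM in DMSO libraries, so every DMSO library lay well above every untreated one. The change was 2.29-fold (log2 1.195, SE 0.14, 95% interval 1.87-fold to 2.80-fold, adjusted p = 1.50e-06 by edgeR). LHCA4 stood at 3377, 2478 and 3022 TPM untreated and at 6201, 5929 and 5836 TPM in DMSO, again without overlap. It rose 2.09-fold (log2 1.06, SE 0.14, adjusted p = 6.51e-06 by edgeR). By mean TPM over all 18 libraries LHCA4 and LHCA1 ranked 4th and 5th of all listed genes.

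LHCA2, which forms the other part of the antenna belt with LHCA3, stood at 3459, 2996 and 3150 TPM untreated and at 3062, 2710 and 2727 TPM in DMSO. The groups overlapped and the log2 change of -0.13 (95% interval -0.39 to 0.12) was not called. LHCA2 was thus the highest of the 3 abundant LHCA genes among the members in each untreated library. It was the lowest of them in each library at ZT2, and LHCA3 is not among the members. Lhca6, a scarce relative that links the NDH complex to photosystem I, rose from 95.2, 79.0 and 102 TPM to 133, 114 and 126 TPM. Its groups did not overlap, and the rise was 1.40-fold (adjusted p = 0.0101 by edgeR), a call lost when the 2nd untreated library was left out.

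Among photosystem II antenna genes, LHCB2.1 encodes a subunit of the trimeric antenna that moves between photosystems in state transitions. It stood at 3322, 2967 and 2953 TPM untreated and at 5806, 5262 and 4242 TPM in DMSO. The lowest DMSO library still lay above the highest untreated one, and the rise was 1.78-fold (log2 0.83, SE 0.15, adjusted p = 1.51e-04 by edgeR). Some of its counts were not whole, so it may share reads with a close copy. LHCB6, a monomeric antenna protein between the trimers and the core, stood at 2645, 2076 and 2494 TPM and then at 4131, 3692 and 4119 TPM. Its groups did not overlap either, with a rise of 1.71-fold (log2 0.77, SE 0.15, adjusted p = 4.56e-04 by edgeR).

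The other 3 photosystem II antenna genes did not pass the test. LHCB5, also a monomeric antenna protein, had 4130, 3341 and 4023 TPM untreated and 5107, 4655 and 4348 TPM in DMSO. Its libraries did not overlap, but the 1.27-fold difference had an adjusted p of 0.0567 by edgeR. LHCB4.2, another monomeric antenna protein, had 3015, 2682 and 2820 TPM and then 2782, 2561 and 2589 TPM, which overlap (log2 -0.06, 95% interval -0.34 to 0.22). LHCB4.3, a copy of the same subunit, was the scarcest member, at 9.33 to 16.1 TPM untreated and 9.86 to 17.6 TPM in DMSO.

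**Figure D2:**
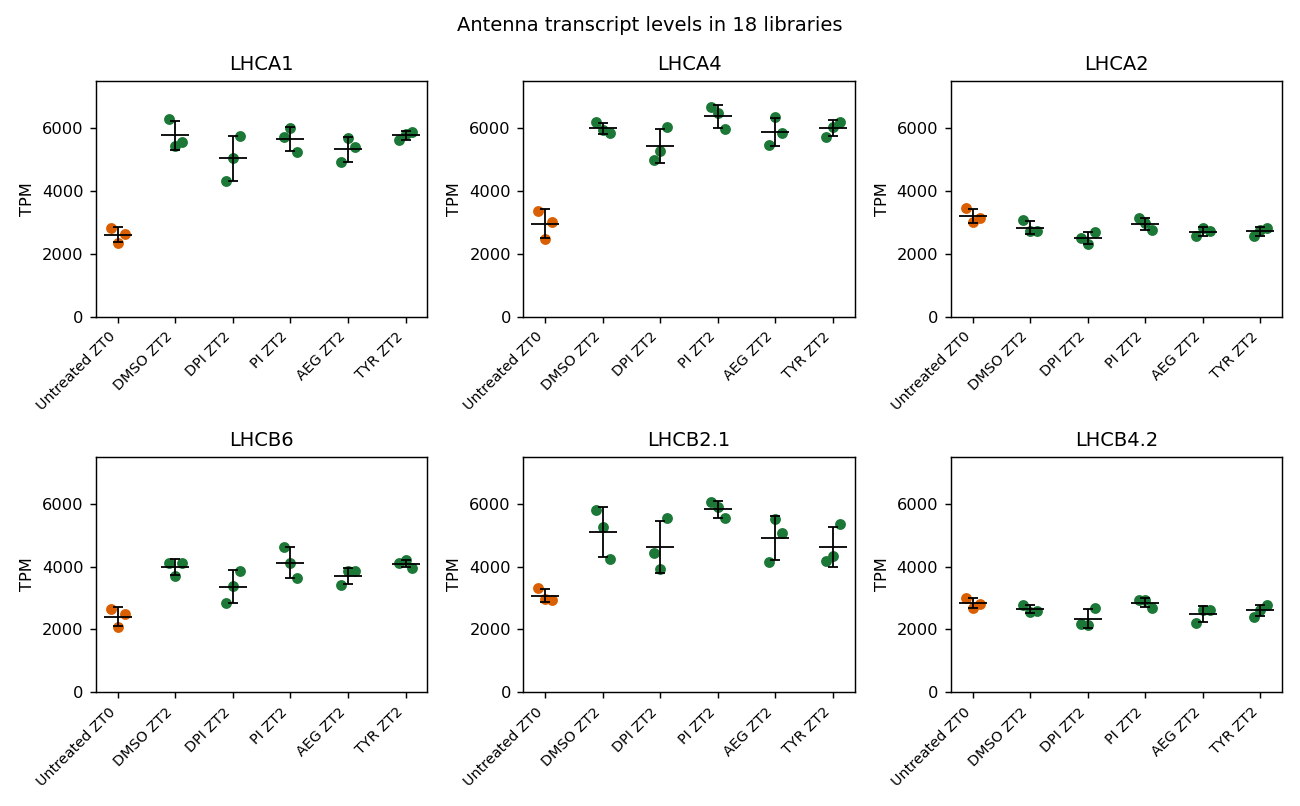
TPM (y axis, from 0) of 6 antenna genes in each of the 18 libraries, by group; points are libraries, and black bars give the group mean with its SD (n = 3). LHCA1, LHCA4, LHCB2.1 and LHCB6 stand higher in all 5 ZT2 groups than in the untreated group, while LHCA2 and LHCB4.2 do not.

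Of the 8 photosystem I subunits, 3 rose and 5 were not called. PSAD-2, the stromal subunit at which ferredoxin docks, had 648, 531 and 644 TPM untreated and 1151, 899 and 873 TPM in DMSO. The groups were separate, and the rise was 1.66-fold (log2 0.73, SE 0.15, adjusted p = 6.85e-04 by edgeR). PSAE-1, a stromal neighbour of PSAD, rose 1.31-fold (adjusted p = 0.0148 by edgeR), from 2937, 2538 and 2945 TPM to 3764, 3327 and 3591 TPM. PSAF, the subunit at which plastocyanin docks, rose 1.26-fold (adjusted p = 0.0365 by edgeR), from 2404, 2143 and 2380 TPM to 3001, 2619 and 2826 TPM.

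The second PSAE copy, PSAE-2, had 1219 to 1435 TPM untreated and 1157 to 1288 TPM in DMSO, and its log2 change was -0.08. When both copies were summed, the PSAE log2 change was 0.29 and no longer called (adjusted p = 0.0630 by edgeR). PSAH-1, which the mobile antenna needs to dock at photosystem I, had 1010 to 1070 TPM and then 860 to 1043 TPM (log2 -0.08). PSAN, a subunit on the lumen side, had a log2 change of -0.04, and PSAK, which sits beside the antenna, one of 0.19. PSAG, the counterpart of PSAK, had 2221 to 2771 TPM untreated and 2828 to 3292 TPM in DMSO; its groups did not overlap, but its log2 change of 0.31 had an adjusted p of 0.101 by edgeR. PSAE-1 and PSAG had counts that were not whole.

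None of the 3 oxygen-evolving genes and none of the 3 small subunits of photosystem II among the members was called. PSBO1, which encodes the manganese-stabilising protein, had 5241, 4695 and 4714 TPM untreated and 4637, 4401 and 4283 TPM in DMSO. Every DMSO library was below every untreated one in TPM, but the log2 change on the normalised counts was -0.09 (95% interval -0.33 to 0.15) and those values overlapped. Its copy PSBO2 had a log2 change of -0.08. PSBQA, an outer subunit of the same complex, had 3060, 2690 and 2860 TPM and then 2622, 2112 and 1942 TPM, with a log2 difference of -0.32 (adjusted p = 0.114 by edgeR).

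PSBR, a small subunit that helps to hold the oxygen-evolving proteins, was the most abundant member and the 2nd most abundant of all listed genes. It had 9848, 8448 and 8051 TPM untreated and 9127, 8212 and 8337 TPM in DMSO, with overlapping groups and a log2 change of 0.01 (95% interval -0.29 to 0.30). PSBX and PSBY, small membrane subunits, had log2 changes of 0.09 and 0.32 and were not called. Among the assembly factors, PSB27 rose 1.39-fold (adjusted p = 0.0204 by edgeR), from 345, 338 and 363 TPM to 454, 458 and 499 TPM without overlap. PSB28 (log2 0.29) and PSB29 (log2 -0.04), which also act in assembly or upkeep of photosystem II, were not called. Plastocyanin, encoded by PETE1, had 556, 426 and 493 TPM untreated and 393, 358 and 418 TPM in DMSO, with no overlap but a log2 difference of -0.29 that was not called (adjusted p = 0.0834 by edgeR).

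Of the 6 NDH genes, 2 of subcomplex B rose and 4 were not called. PnsB2 rose 1.79-fold (log2 0.84, SE 0.12, adjusted p = 1.22e-05 by edgeR), from 91.4, 100 and 111 TPM to 183, 164 and 177 TPM. PnsB1 rose 1.34-fold (adjusted p = 0.0224 by edgeR), from 136, 133 and 142 TPM to 198, 172 and 163 TPM. Neither gene had overlapping groups. PnsB4 of the same subcomplex stood at 196, 195 and 209 TPM and then at 175, 143 and 149 TPM; its groups were separate too, but its log2 difference of -0.28 was not called (adjusted p = 0.0960 by edgeR). PnsL1 and Pnsl5 on the lumen side had log2 changes of -0.29 and 0.14, and NdhS, at the ferredoxin-binding site, one of -0.03, none of them called.

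The PGR group held the single member called lower. PGRL1B, a copy of the PGR5 partner protein in cyclic electron flow, had 36.4, 31.0 and 26.2 TPM untreated and 19.6, 26.1 and 22.7 TPM in DMSO. It fell by 0.41 on the log2 scale (adjusted p = 0.0422 by edgeR), but the normalised counts of the groups overlapped, and the call was lost in 7 of the 18 fits that left out 1 library. The much more abundant copy, PGR5-LIKE A, had 421 to 490 TPM and 450 to 481 TPM and a log2 change of 0.09, and both copies summed gave 0.07. PGR5 (log2 -0.13) and PGR3, a pentatricopeptide repeat protein acting on chloroplast transcripts (log2 -0.03), were not called.

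LHCA1, LHCA4, LHCB2.1, LHCB6, PSAD-2 and PnsB2 were the 6 with an adjusted p under 0.01 by edgeR, and each kept its call in all 18 fits that left out 1 library. Without the 2nd untreated library only 6 members were called higher. Calls were lost in at least 1 such fit for Lhca6, PnsB1, PSAE-1, PSAF and PSB27. RefSeq annotates a gene on the opposite strand that overlaps 15 of the 37 members, LHCA4, LHCB6 and LHCB4.2 among them, and a same-strand neighbour overlaps PSAD-2. Whether the counting used strand is not given in the sources used here, so reads of such pairs may be mixed.

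The ratio of 2 members within a library needs no scaling between libraries. These pairs were chosen after their values were seen, and the ratios carry no test. The LHCA1 to LHCA2 ratio of TPM values was 0.815, 0.782 and 0.839 in untreated libraries and at least 1.73, with a median of 2.03, in the 15 libraries at ZT2. The ratio thus lay below 1 in every untreated library and above 1 in every ZT2 library. LHCA4 to LHCA2 shifted the same way, from 0.827 to 0.976 up to 2.00 to 2.29. The ratio of the partners LHCA1 and LHCA4 stayed at 0.835 to 0.946 untreated and 0.859 to 1.02 at ZT2, with overlap.

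Ratios between members also shifted elsewhere in the photosystems. LHCB6 to LHCB4.2 was 0.774 to 0.884 untreated and 1.30 to 1.71 at ZT2. PSAD-2 to PSAH-1 was 0.525 to 0.637 and then at least 0.912, and PnsB2 to PnsB4 was 0.466 to 0.532 and then 0.962 to 1.45. None of these ranges overlapped. The PSAE-1 to PSAE-2 ranges were close but separate, at 2.05 to 2.27 and 2.32 to 3.16. By contrast the copies PSBO1 and PSBO2 kept a ratio of 2.64 to 2.70 untreated and 2.48 to 2.89 at ZT2.

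**Figure D3:**
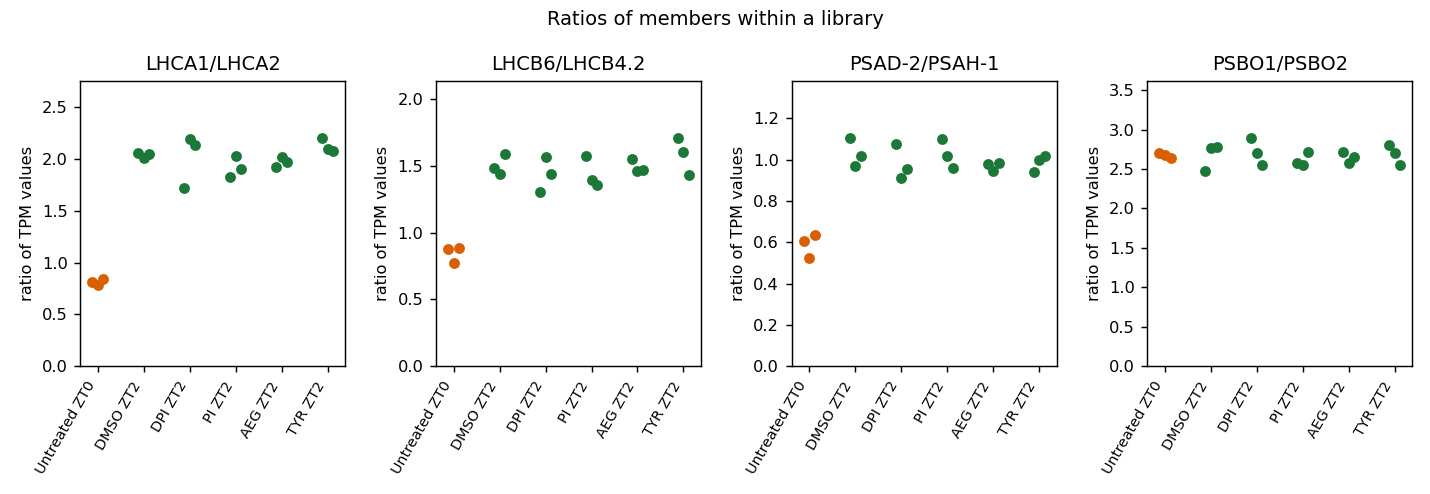
Ratio of TPM values (y axis, from 0) of 4 pairs of members within each of the 18 libraries, by group; each point is a library. The LHCA1 to LHCA2 ratio is 0.782 to 0.839 in untreated libraries and at least 1.73 at ZT2, whereas the PSBO1 to PSBO2 ranges overlap.

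Taking the mean of the 5 ZT2 groups against untreated uses 15 libraries at ZT2 and gives a smaller error, although DMSO and the chemicals are then mixed. In that comparison 15 members were called higher and 5 lower by edgeR, which is 54.1% of members beside 49.7% of all genes. By direction 40.5% of members were higher beside 25.5% of all genes, and 13.5% were lower beside 24.2%. Those called higher here and not with DMSO alone were LHCB5 (log2 0.32), PSB28 (0.36), PSAG (0.32) and PSBY (0.33). Called lower were PSBQA (log2 -0.36, adjusted p = 0.0137 by edgeR), PnsL1 (-0.30), PnsB4 (-0.29), PETE1 (-0.28) and PGRL1B (-0.42). Untreated and ZT2 libraries did not overlap for 8 members, 21.6% beside 31.5% of all genes, PnsB4 among them, while the other 4 called lower overlapped. LHCA1 (1.14), LHCA4 (1.06), PnsB2 (0.86), LHCB2.1 (0.83), LHCB6 (0.74) and PSAD-2 (0.65) had the largest log2 rises. Of these LHCB6 overlapped, as its normalised counts in the 1st DPI library lay below those in the 1st untreated library. Only 9 members were called higher without the 2nd untreated library, and none was called lower without the 1st.

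Each chemical was also set against the same 3 untreated libraries, so these comparisons share their controls. For DPI 12 members were called, 32.4% beside 40.1% of all genes. Of these 6 were higher, 16.2% beside 21.7% of all genes, and 6 lower, 16.2% beside 18.4%. For PI 15 were called, all higher, 40.5% beside 38.0% in both directions and 20.2% higher among all genes, and the count was 8 without the 1st PI library or without the 2nd untreated one. For AEG 9 were called, all higher, 24.3% beside 40.0% in both directions and 21.2% higher, and a fit of only the AEG and untreated libraries called 16. For TYR 13 were called, 35.1% beside 37.4%, of which 11 were higher, 29.7% beside 20.1%, and 2 lower, 5.41% beside 17.3%. LHCA1 had a log2 change of 0.96 in DPI, 1.23 in PI, 1.13 in AEG and 1.19 in TYR seedlings, beside 1.195 in DMSO. LHCB6 had 0.49, 0.89, 0.71 and 0.81, beside 0.77 with DMSO, and PnsB2 had 0.80, 0.88, 0.90 and 0.85, beside 0.84.

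Against the solvent control, which asks whether a chemical altered the transcripts at ZT2, no member passed the test for DPI, PI, AEG or TYR. The background was the same, with 0.0% of the 9006 genes called for each chemical by edgeR, and DESeq2 called no member either. At an unadjusted p under 0.05, edgeR gave 1 member for DPI and 0 for PI, AEG and TYR, beside 323, 223, 302 and 351 of all genes. The 95% intervals of single members, not adjusted for the number of genes, reached a median of 0.29 to either side on the log2 scale.

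With DPI, 36 of the 37 members had values below DMSO, beside 4467 of all 9006 genes. Members also differed together between libraries of a group, so they are not separate observations. The median log2 difference of the members was -0.15 beside 0.002 for all genes. The median without single DPI or DMSO libraries ranged from -0.24 to -0.10, and was -0.24 without the 3rd DPI library. PSB27 had the smallest p, with 298, 449 and 405 TPM beside 454, 458 and 499 TPM in DMSO. All 3 DPI libraries were below the DMSO ones, and the log2 difference was -0.33 (95% interval -0.65 to -0.01, adjusted p = 0.990 by edgeR). PSAK followed, with 2194, 3014 and 2713 TPM beside 2928, 3009 and 3520 TPM in overlapping groups (log2 -0.29, 95% interval -0.59 to 0.01). Groups did not overlap for 4 members, PSB27, PSBR, PSBX and Lhca6, which is 10.8% beside 6.53% of all genes.

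Without the 1st DPI library, in which PSBR had 6245 TPM beside 8245 and 7962 TPM in the others, the median was -0.10. Of the 37 members, 20 are among the shortest 25% of genes tested and 1 among the longest 25%. For DPI against DMSO the median log2 difference was -0.07 over the shortest 25% of all genes and 0.04 over the longest 25%. The part of gene length in the members' values was not tested.

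With PI, 29 of 37 members had values above DMSO, beside 4486 of all 9006 genes. The median log2 difference of the members was 0.09, which was 0.002 without the 1st PI library. LHCB2.1 had the smallest p, with 6051, 5884 and 5537 TPM beside 5806, 5262 and 4242 TPM, an overlap (log2 0.23, 95% interval -0.07 to 0.53). LHCB4.2 had 2943, 2937 and 2682 TPM beside 2782, 2561 and 2589 TPM, and its normalised values overlapped too (log2 0.18, 95% interval -0.10 to 0.46). No member had separate groups for PI, beside 7.89% of all genes.

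With AEG and TYR the median log2 differences of the members were -0.01 and -0.02, and 0.05 and 0.03 without the 1st DMSO library. For AEG the smallest p belonged to PSB28 (log2 0.11, 95% interval -0.16 to 0.38) and PGR3 (log2 0.12, 95% interval -0.20 to 0.44). PSAE-1 and PSB27 had separate groups, which is 5.41% of members beside 6.87% of all genes. For TYR the smallest p belonged to Lhca6, with 161, 152 and 119 TPM beside 133, 114 and 126 TPM in overlapping groups (log2 0.20, 95% interval -0.08 to 0.49). PSB28 followed (log2 0.18, 95% interval -0.08 to 0.45), and no member had separate groups, beside 7.57% of all genes.

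The genes that rose most at dawn had the following values with chemicals. For LHCA1 the log2 difference from DMSO was -0.23 for DPI (95% interval -0.52 to 0.05), 0.04 for PI (-0.25 to 0.32), -0.07 for AEG (-0.36 to 0.22) and -0.01 for TYR (-0.29 to 0.28). For LHCA4 the differences were -0.18, 0.16, 0.02 and -0.0047 in the same order. Each of these intervals contains 0, and none reaches the size of the dawn rise.

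**Figure D4:**
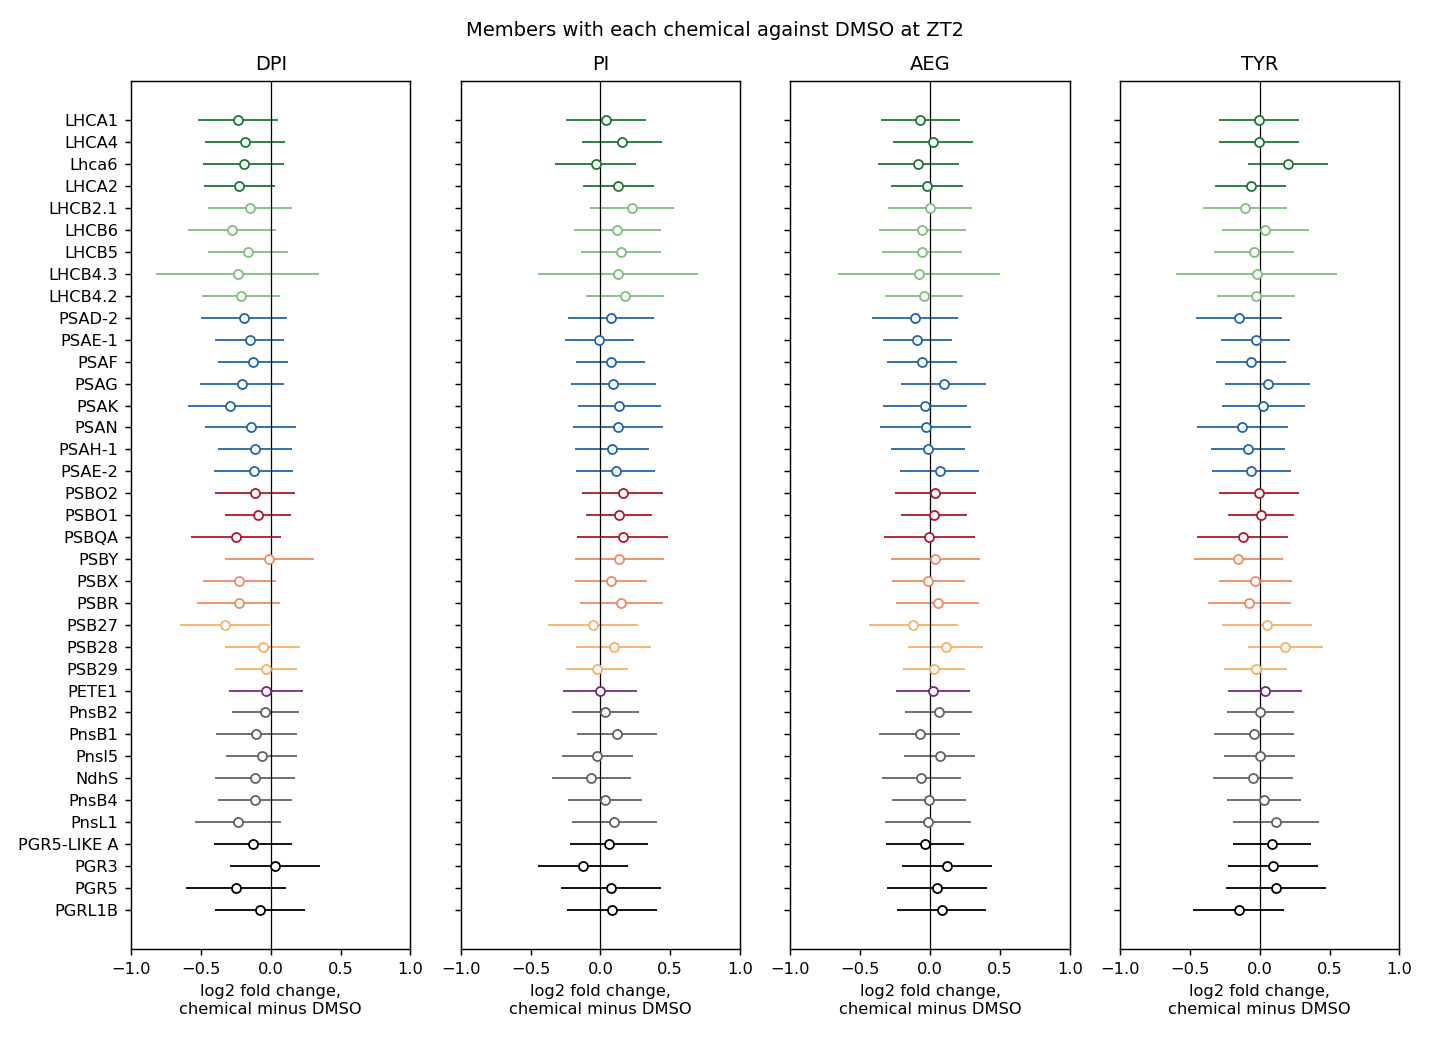
Log2 fold change (x axis) of each member (y axis, coloured by role as in the plot of dawn changes) for DPI, PI, AEG and TYR against DMSO at ZT2, 3 libraries a group, with 95% intervals. No point passed the test, and 36 of the 37 members lie left of 0 for DPI, beside 4467 of all 9006 genes.

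Libraries of one group also differed from each other in these genes. Members were compared within groups by taking each library's log2 CPM (counts scaled to the library total times its TMM factor) minus its group mean. In PI 1, 35 of the 37 members lay above the group mean, and in PI 3 only 2 did. In DPI the numbers above the mean were 8, 17 and 35, and in untreated libraries they were 34, 1 and 16. The median deviation of a library ranged from -0.15 in PI 3 to 0.16 in DPI 3.

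Over the 18 libraries the median pairwise Pearson r of these deviations was 0.57 among the 37 members, with 89.0% of 666 pairs positive. It was -0.001 over all genes tested and 0.39 among 107 genes with an average of at least 10 on the log2 CPM scale, members included. All pairs share libraries and depth, and r is given as a description only. By role the median r was 0.94 for the oxygen-evolving genes, 0.73 for photosystem I subunits, 0.72 for photosystem II assembly factors, 0.71 for the photosystem II antenna, 0.67 for the photosystem I antenna, 0.29 for NDH genes, 0.17 for the small photosystem II subunits and -0.11 for PGR genes. These medians rest on 3 pairs for each role of 3 genes, 6 for each role of 4 genes and 28 for photosystem I subunits. LHCA2, which was not called at dawn, had the highest r with the median of the members, 0.96, beside 0.92 for LHCA1. PGRL1B at -0.23 and PGR3 at -0.04 lay below 0, while LHCB4.3, the scarcest member, stood at 0.60. The deviation of short minus long genes over the whole table, each the 25% at one end of the range of lengths, also differed between libraries. It was 0.23 in PI 1 and -0.19 in PI 3, as the members stood, but -0.32, 0.32 and 0.02 in the DPI libraries, of which the third had the highest members. Over the 18 libraries its Pearson r with the median deviation of the members was 0.43, given as a description of libraries that share group means, and its part in their covariation was not tested.

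**Figure D5:**
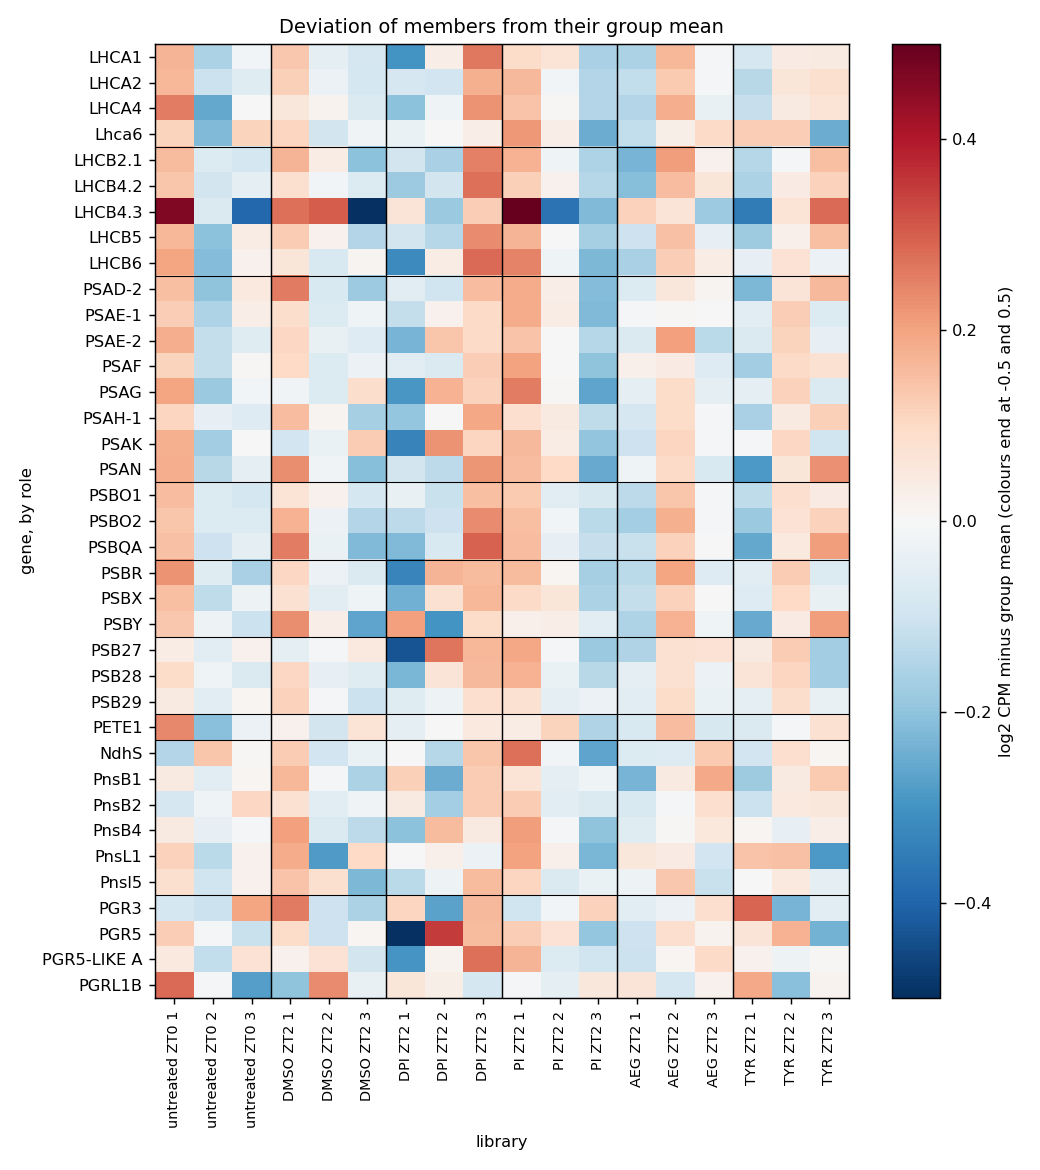
Log2 CPM minus the group mean (colour, red above and blue below) of the 37 members (rows, by role) in the 18 libraries (columns, 3 per group). Columns of 1 colour, such as PI 1 with 35 of 37 members above the mean and PI 3 with 2, show members differing together between libraries of a group.

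Other genes of the photosynthetic pathway were taken from lists not picked by the rule above. The lists named 24 genes of chlorophyll synthesis, 19 of carbon fixation, 39 assembly and state transition factors, 18 photoprotection genes and 22 regulators. Names absent from the table could not be tested, so the counts below cover only part of each list. Their counts at dawn stand beside 19.6% of all genes called higher and 16.0% called lower, and lists this short are given as a description only. Of 14 tested genes of chlorophyll synthesis, 1 rose at dawn and 2 fell. GUN4, which stimulates magnesium chelatase, rose by 0.60 on the log2 scale, whereas PORB, a light-dependent protochlorophyllide reductase, went from 477, 416 and 497 TPM to 42.6, 47.4 and 42.0 TPM (log2 -3.35, adjusted p = 8.05e-10 by edgeR). Of 11 carbon fixation genes 0 rose and 3 fell, GAPA, a Calvin cycle dehydrogenase subunit, by the most (log2 -0.64). Of 19 assembly and state transition factors 2 rose and 3 fell, with CRR21, an editing factor for an NDH transcript, at a log2 of 0.60 and CRR6, an NDH assembly factor, at -0.89.

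Of 7 photoprotection genes 3 rose and 2 fell. ELIP2, an early light-induced relative of the antenna proteins, went from 10.6, 18.6 and 12.2 TPM to 126, 162 and 115 TPM (log2 3.34, adjusted p = 6.47e-07 by edgeR). LIL3:2, a light-harvesting-like protein of chlorophyll synthesis, fell by 1.03 on the log2 scale. Of 16 regulators 6 rose and 2 fell. PIF4, a phytochrome-interacting factor, had the largest rise (log2 4.66), and the clock gene LHY the largest fall (log2 -1.48). Among the markers GL2, an epidermal gene also known in leaf hairs, fell (log2 -0.90), and EPF2, a stomatal lineage signal, rose (log2 1.29). Against DMSO no gene of these lists was called for any chemical.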

How the data were processed

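Whole Arabidopsis seedlings were profiled by RNA-seq in 18 libraries of 6 groups, as the labels give them. The authors deposited estimated counts, TPM and FPKM per gene, and per the submitters' processing notes HISAT2 2.2.1, RSEM 1.2.22 and TAIR10 were used. Of 29431 lines in the table, 11981 named a gene, and 544 repeats with equal values were dropped. Deposited counts were rounded and tested with edgeR 4.0.16 (quasi-likelihood, TMM factors, filterByExpr, 1 fit over all 18 libraries, 10 comparisons, Benjamini-Hochberg over 9006 genes); R was 4.3.3. The fit was tested on simulated data. TPM values give levels, and relative gene lengths were taken from counts divided by FPKM. DESeq2 1.42.0 served as an alternative test.

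Members, gene lists and motifs were chosen with earlier results of these data known. Named genes were all antenna members, the 3 called members with the largest dawn change and the most abundant member of each other role, the 2 with the smallest p per chemical and the largest rise and fall in each list. Other members were named after their values were seen, and 2 list names were matched to other aliases after the table was read. Per the authors' table, 3 members have counts that are not whole. RefSeq TAIR10.1 gave loci and promoters, and locus name and identifier agreed for all 37 members.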

Additional observations from a re-analysis of the deposited data

How the results depend on the processing

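Of 11 members called higher at dawn, 6 remained past an adjusted p of 0.01, and leaving out single libraries gave 6 to 12. The count called lower, 1, was 2 with DESeq2 and 3 without TMM. It was 0 with genes of at least 1 count in any library, with only the groups compared, with the replicate block, with copies summed and at the stricter threshold, and 0 to 2 without single libraries. Against untreated, members called with DPI (12) were 7 at the stricter threshold and 8 to 13 without single libraries, with PI (15) 8 and 8 to 16, and with AEG (9) 16 in a fit of only the groups compared and 6 to 12. With TYR (13) the range was 10 to 14. For the mean of the ZT2 groups, 15 higher became 9 to 15 without single libraries, and 5 lower became 1 at the stricter threshold and 0 to 5. The cause was not tested. The dawn log2 change of PSBR was -0.0039 with DESeq2, -0.0281 without TMM and -0.0067 with only the groups compared, and -0.0715 to 0.133 without single libraries. Such ranges also crossed 0 for uncalled LHCB4.2 (-0.103 to 0.0222), NdhS (-0.0955 to 0.0437), PGR3 (-0.167 to 0.0809), PSAE-2 (-0.138 to 0.0223), PSAH-1 (-0.157 to 0.004), PSAN (-0.164 to 0.065) and PSB29 (-0.0908 to 0.0225). Counts for chemicals against DMSO were 0 in every setting. Over 45 pairs of libraries with the same replicate number, r of the deviations had a mean of 0.008 and ranged from -0.31 to 0.27. Opposite signs cancel in that mean, so it cannot show whether replicate numbers pair libraries. Medians without libraries or TMM were added after seeing the data. Of the 37 members the scarcest, LHCB4.3, had the widest dawn interval, 0.58 to either side.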
